A study of Mus musculus with 9 samples.

Results

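The genes described are 10 mesenchymal genes of the bone marrow (BM), namely Lepr, Adipoq, Pdgfra, Runx2, Bglap, Col1a1, Col1a2, Col3a1, Dcn and Lum, which were chosen by name. All 10 were found among the 46078 genes of the deposited count table, and all 10 passed the filter on low counts that left 15937 genes to be tested. They were followed through 9 RNA-seq libraries of endothelial cells (ECs) sorted as CD45-Ter119-CD31+ from the BM of wild type B6 mice. Of these libraries 4 were made from Sca-1+ ECs (label end numbers 7, 13, 15 and 19) and 5 from Sca-1- ECs (8, 10, 14, 16 and 22), the fractions the study calls Sca-1high and Sca-1low and assigns to arterioles and sinusoids. The labels give no age and do not say whether mice were pooled or whether each library came from a different mouse. The titles of 15 and 16 share a number whose meaning is not given. For these reasons p-values measure the spread between these samples. The titles of libraries 8, 15, 16 and 19 carry the mark wt, those of 13, 14 and 22 the mark CD452, that of 10 the same mark without the letters, and that of 7 neither, and what the marks mean is not given in the sources used here.

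Reticular stromal cells of the marrow lie around sinusoids, express the leptin receptor and adiponectin, and supply blood stem cells with CXCL12 and stem cell factor. Osteoblasts arise from such stromal cells under the transcription factor RUNX2, and lay down bone matrix made mainly of type I collagen, with osteocalcin as a late product. Fibroblasts and other connective tissue cells make type III collagen and the small proteoglycans decorin and lumican, which bind collagen fibrils. None of these cells is endothelial, and the gate of the sort keeps CD31+ cells and removes cells with CD45 or Ter119.

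Total counts were 23058385 to 24657204 in the Sca-1+ and 21581653 to 25959818 in the Sca-1- libraries. A level is a CPM value, counts relative to library size after scaling by edgeR's TMM method, and 3 counts, the floor, correspond to 0.0996 to 0.209 CPM. Ly6a, which encodes Sca-1, lay between 874 and 1306 CPM in the Sca-1+ and between 0.240 and 1.49 CPM in the Sca-1- libraries. Pecam1 (CD31) ranged from 1137 to 1760.5 CPM and from 334 to 1701 CPM. Ptprc (CD45) ranged from 0 to 2.56 CPM and from 17.2 to 47.8 CPM. Counts of 15 general endothelial markers summed to 7405 to 9187 CPM in the Sca-1+ and 753 to 2607 CPM in the Sca-1- libraries, and 14 of the 15 were called higher in Sca-1+ ECs. In the Sca-1- libraries 11 megakaryocyte markers summed to 21452 to 79367 CPM. The term ECs therefore follows the labels and the sort gate only, and which cells held a transcript is not known from these counts. The running numbers at the front of the labels form separate series for Sca-1+ and Sca-1- libraries, and a batch along these numbers cannot be told apart from the fraction.

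The question put to the counts was which of these genes differ between the EC fractions, and how evenly the libraries of a fraction carry them. Of the 10 genes, Lepr and Adipoq were called higher in Sca-1+ ECs, by about the same fold, while Col1a1, Col1a2 and Bglap were called lower by folds more than 10 times as large, and 5 were not called. With the title mark as a term in the fit neither Lepr nor Adipoq passed, while the other 3 calls held. Of all 15937 genes tested 44.8% were called, 23.3% higher and 21.4% lower in Sca-1+ ECs, so that calling 5 of 10 is close to the share among all genes. In Col1a1, Col1a2 and Bglap every Sca-1- library lay above every Sca-1+ library, as in 18.8% of all genes tested, and in none of the 10 genes did every Sca-1+ library lie above every Sca-1- library, as in 24.8%. The median log2 fold change (Sca-1+ over Sca-1-) was -1.20 over the 10 genes and 0.07 over all genes tested. Called means that edgeR's quasi-likelihood F-test, two-sided, gave a Benjamini-Hochberg adjusted p below 0.05 across the whole table. In bulk samples fewer cells of a type and less RNA per cell cannot be told apart.

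**Figure D1:**
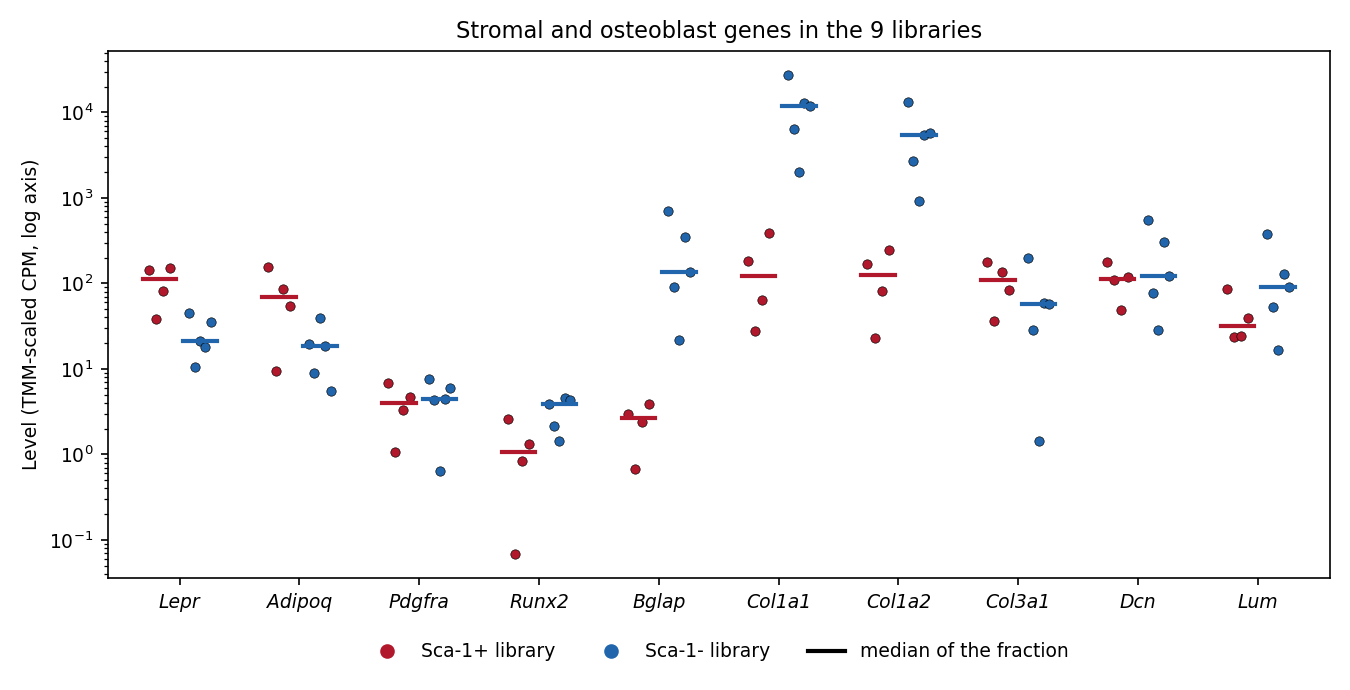
Level of each of the 10 genes in every library (y axis, TMM-scaled CPM on a log axis), with red points for the 4 Sca-1+ and blue points for the 5 Sca-1- libraries and a line at the median of the fraction. The fractions separate without overlap for Bglap, Col1a1 and Col1a2, and overlap for the other 7 genes.

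Lepr (ENSMUSG00000057722, chromosome 4 from 101717404 to 101815352 on the + strand) encodes the leptin receptor, the defining marker of marrow reticular cells. Its level was 141, 38.2, 80.9 and 151 CPM in Sca-1+ libraries 7, 13, 15 and 19. It was 45.2, 10.5, 20.9, 18.0 and 35.6 CPM in Sca-1- libraries 8, 10, 14, 16 and 22. Only the lowest Sca-1+ library, 13, and the highest Sca-1- library, 8, overlapped. The means were 103 ± 53.2 CPM (SD, n = 4) and 26.03 ± 14.1 CPM (SD, n = 5), and the fold was 3.95 (log2 fold change 1.98 ± 0.49 SE, edgeR adjusted p = 0.0078). The call held without any 1 library, with an adjusted p of at most 0.026 in edgeR's test. With the title mark as a term over the 8 libraries that carry one, chosen after seeing the data, the log2 fold change was 1.44 and did not pass (edgeR adjusted p = 0.071).

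Adipoq (ENSMUSG00000022878, chromosome 16 from 23146536 to 23158028 on the + strand) encodes adiponectin, a hormone of fat cells that marrow reticular cells also express. The Sca-1+ libraries 7, 13, 15 and 19 gave 156, 9.47, 84.8 and 53.7 CPM, and the Sca-1- libraries 8, 10, 14, 16 and 22 gave 19.6, 8.87, 38.9, 18.3 and 5.50 CPM. Library 13 was again the lowest Sca-1+ library and lay below 3 of the 5 Sca-1- libraries. The mean level in Sca-1+ ECs, 76.0 ± 61.6 CPM (SD, n = 4), compared with 18.2 ± 13.01 CPM (SD, n = 5), and the fitted fold was 4.16 (log2 fold change 2.06 ± 0.73 SE, edgeR adjusted p = 0.041). This call was lost in 12 of 20 alternative fits, among them those without Sca-1+ library 7, 15 or 19 and without Sca-1- library 8, 10, 16 or 22, where edgeR's adjusted p reached 0.15, and that with the title mark as a term, where it was 0.48. In the fits without 1 of these 7 libraries Lepr was the only one of the 10 genes called higher in Sca-1+ ECs.

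Pdgfra (ENSMUSG00000029231, chromosome 5 from 75152292 to 75198215 on the + strand) encodes the PDGF receptor alpha chain, a surface marker of mesenchymal progenitors and fibroblasts. It was counted at 6.82, 1.06, 3.32 and 4.65 CPM in Sca-1+ libraries 7, 13, 15 and 19 and at 7.57, 4.33, 0.636, 4.38 and 6.03 CPM in Sca-1- libraries 8, 10, 14, 16 and 22. The fractions covered the same range, and 1 library of each, 13 and 14, stood below the rest. The log2 fold change of -0.21 (± 0.68 SE, edgeR adjusted p = 0.82) was within the spread between libraries and turned to 0.21 when libraries were scaled by library size only. Pdgfra is uncertain, since its exons overlap those of Mir7025 on the same strand and of Gm42802 and Gm42803 on the other, and the counting's use of strand is not given in the sources used here.

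**Figure D2:**
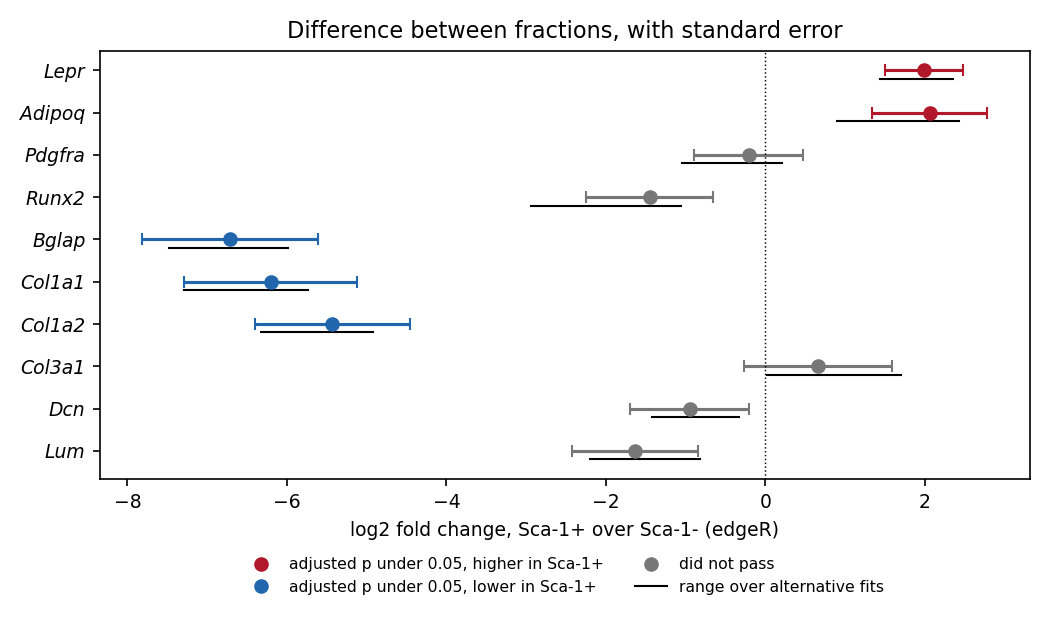
Log2 fold change of each gene, Sca-1+ over Sca-1- (x axis), from edgeR with its standard error as a bar, and below it a thin line for the range over the alternative fits. Red and blue points passed the threshold as higher or lower in Sca-1+ ECs, and Pdgfra alone has a range that crosses 0.

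Runx2 (ENSMUSG00000039153, chromosome 17 from 44495987 to 44814797 on the - strand) encodes the transcription factor that commits stromal cells to bone. The Sca-1+ libraries 7, 13, 15 and 19 held 75, 2, 24 and 34 counts, or 2.56, 0.0681, 0.8288 and 1.32 CPM, library 13 being below the floor of 3 counts. The Sca-1- libraries 8, 10, 14, 16 and 22 held 65, 31, 34, 136 and 106 counts, or 3.90, 2.16, 1.44, 4.52 and 4.32 CPM. All 4 Sca-1+ libraries were under the Sca-1- median of 3.90 CPM, but library 7 exceeded Sca-1- libraries 10 and 14. The log2 fold change was -1.45 (± 0.79 SE, edgeR adjusted p = 0.16), and it stayed negative in all 20 alternative fits and short of the threshold in all but that with the title mark as a term, where it was -2.93 (edgeR adjusted p = 0.040). Exons of Runx2os1 overlap those of Runx2 on the other strand, so Runx2 is uncertain too.

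Bglap (ENSMUSG00000074483, chromosome 3 from 88383501 to 88384464 on the - strand) encodes osteocalcin, a protein that mature osteoblasts deposit in bone. The Sca-1+ libraries 7, 13, 15 and 19 held 86, 20, 69 and 101 counts, or 2.93, 0.681, 2.38 and 3.91 CPM. The Sca-1- libraries 8, 10, 14, 16 and 22 held 11715, 1308, 507, 10459 and 3306 counts, or 704, 91.3, 21.5, 347 and 135 CPM. The lowest Sca-1- library, 14, was still above the highest Sca-1+ library, 19, and the Sca-1- libraries themselves spanned 32.7-fold. The means were 2.48 ± 1.35 CPM (SD, n = 4) and 260 ± 276 CPM (SD, n = 5), so that Bglap was 105-fold lower in Sca-1+ ECs by the fit, a log2 fold change of -6.71 (± 1.10 SE, edgeR adjusted p = 8.2e-04). The call held in all 21 alternative fits, one of which summed Bglap with its copies.

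Mouse osteocalcin genes lie side by side and are near-identical, and 56.6% of the 50-base windows of Bglap transcripts also occur in Bglap2 or Bglap3, so reads could be split among the copies or dropped. Bglap2 (ENSMUSG00000074486, chromosome 3 from 88377736 to 88378699 on the - strand) shares 88.2% of its windows. It was counted at 0.919 to 1.87 CPM in the Sca-1+ libraries and at 321, 51.0, 10.4, 161 and 67.4 CPM in Sca-1- libraries 8, 10, 14, 16 and 22, in the same order of libraries as Bglap. Its log2 fold change was -6.52 (± 0.98 SE, edgeR adjusted p = 4.9e-04). Bglap3, from 88368616 to 88372743, was not tested, with at most 2.32 CPM in any library. Within a Sca-1- library Bglap had 1.79 to 2.19 times the counts of Bglap2, a ratio that moved little while the levels moved over 30-fold.

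Promoter sequences are shown for 1 gene called lower (Bglap), 1 called higher (Adipoq) and 1 not called (Col3a1), because RUNX proteins bind a short core motif and osteocalcin is a textbook target of RUNX2. Each line gives the 250 bases before the gene's start from RefSeq on GRCm38.p6, 5′ to 3′ on the gene's strand, in lower case, with a match to the motif ACCACA, searched on both strands as ACCACA or TGTGGT, in capitals. The windows are chr3:88384467-88384716 on the - strand for Bglap, chr16:23146286-23146535 on the + strand for Adipoq and chr1:45311288-45311537 on the + strand for Col3a1.
Bglap: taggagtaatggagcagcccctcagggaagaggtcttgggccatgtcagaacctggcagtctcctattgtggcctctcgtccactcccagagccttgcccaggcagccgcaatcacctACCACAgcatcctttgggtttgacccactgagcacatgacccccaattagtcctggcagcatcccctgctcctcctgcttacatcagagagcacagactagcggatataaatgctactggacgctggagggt
Adipoq: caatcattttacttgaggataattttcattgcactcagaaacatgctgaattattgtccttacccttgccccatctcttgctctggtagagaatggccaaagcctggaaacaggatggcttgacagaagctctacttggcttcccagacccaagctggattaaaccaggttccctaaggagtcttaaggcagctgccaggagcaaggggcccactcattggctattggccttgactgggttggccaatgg
Col3a1: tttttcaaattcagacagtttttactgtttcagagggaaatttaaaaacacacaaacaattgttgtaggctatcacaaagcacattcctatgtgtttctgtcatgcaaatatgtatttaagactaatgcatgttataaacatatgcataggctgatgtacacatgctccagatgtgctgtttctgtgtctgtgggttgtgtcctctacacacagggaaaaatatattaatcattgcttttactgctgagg
Bglap held 1 match, which starts at position -132 from the gene's start, and Adipoq and Col3a1 held 0. RefSeq windows were found for 7 of the 10 genes, and of the others only Runx2 held a match, at position -80, while Lepr (in either of its windows), Pdgfra and Col1a2 held 0. Of 32851 mouse promoters of the same length 14.05% hold the motif. A match describes letters in the window and is no measured binding.

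Col1a1 (ENSMUSG00000001506, chromosome 11 from 94936224 to 94953042 on the + strand) encodes the alpha 1 chain of type I collagen, the main protein of bone. Its level was 181, 27.4, 63.8 and 389 CPM in Sca-1+ libraries 7, 13, 15 and 19. It was 27568, 6412, 2028, 12953 and 11841 CPM in Sca-1- libraries 8, 10, 14, 16 and 22. The lowest Sca-1- library, 14, was above 5 times the highest Sca-1+ library, 19, and library 13 was lowest again. The means were 165 ± 163 CPM (SD, n = 4) and 12161 ± 9667 CPM (SD, n = 5), so that Col1a1 was 73.6-fold lower in Sca-1+ ECs by the fit, a log2 fold change of -6.20 (± 1.08 SE, edgeR adjusted p = 0.0012).

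Col1a2 (ENSMUSG00000029661, chromosome 6 from 4504814 to 4541544 on the + strand) encodes the alpha 2 chain, of which the type I collagen molecule holds fewer copies than of alpha 1. The Sca-1+ libraries 7, 13, 15 and 19 gave 169, 22.8, 82.1 and 245 CPM and the Sca-1- libraries 8, 10, 14, 16 and 22 gave 13061, 2690.0, 925, 5495 and 5797 CPM. The order of the libraries was that of Col1a1, except that 22 was above 16. The fold was 43.1 (log2 fold change -5.43 ± 0.97 SE, edgeR adjusted p = 0.0013). Both type I collagen genes were called lower in all 20 alternative fits, with log2 fold changes of -7.29 to -5.74 for Col1a1 and -6.33 to -4.93 for Col1a2.

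The counts of Col1a1 were 2.04 to 2.38 times those of Col1a2 within each Sca-1- library. In Sca-1+ libraries 7, 13, 15 and 19 the ratio was 1.07, 1.20, 0.777 and 1.59. The ratios of the fractions did not overlap. The ratio of Col1a1 to Col3a1 counts separated the fractions further, with 0.467 to 4.62 in the Sca-1+ and 138 to 1406 in the Sca-1- libraries.

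Col3a1 (ENSMUSG00000026043, chromosome 1 from 45311538 to 45349706 on the + strand) encodes type III collagen, found with type I in soft tissues and vessel walls but scarce in bone. Its level was 180, 36.2, 137 and 84.3 CPM in Sca-1+ libraries 7, 13, 15 and 19 and 200, 28.8, 1.44, 58.2 and 57.1 CPM in Sca-1- libraries 8, 10, 14, 16 and 22. Library 14, with 34 counts, was far below the rest, library 8 was highest of all 9, and the Sca-1- libraries spanned 139-fold. The log2 fold change of 0.66 (± 0.93 SE, edgeR adjusted p = 0.59) had the opposite sign to that of the type I collagen genes and did not pass. Without library 8 it was 1.498, and it did not pass there either. An exon of Gm47302 overlaps Col3a1 on the same strand over 141 bases.

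Dcn (ENSMUSG00000019929, chromosome 10 from 97479609 to 97518143 on the + strand) and Lum (ENSMUSG00000036446, from 97565128 to 97572703 on the same strand) encode decorin and lumican and lie 46984 bases apart. Dcn was counted at 175, 108, 49.0 and 118 CPM in Sca-1+ libraries 7, 13, 15 and 19 and at 554, 76.1, 28.6, 308 and 122 CPM in Sca-1- libraries 8, 10, 14, 16 and 22. Lum was counted at 85.1, 23.4, 24.0 and 39.7 CPM and at 382, 53.1, 16.7, 127 and 90.5 CPM in the same order. For both genes library 8 was highest and library 14 lowest of the Sca-1- libraries, and the Sca-1+ values lay inside the range between these. The log2 fold change was -0.95 for Dcn (± 0.74 SE, edgeR adjusted p = 0.32) and -1.64 for Lum (± 0.79 SE, edgeR adjusted p = 0.12). Lum passed in 3 of 20 alternative fits, with an adjusted p of 0.049 from DESeq2, of 0.033 from edgeR without Sca-1- library 14 and of 0.044 from edgeR with the title mark as a term.

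Levels of different genes were set side by side only per length, as the mean CPM per kilobase of annotated exon. In the Sca-1- libraries the order was Col1a1 at 1853, Col1a2 at 450.2, Bglap at 420.2, Lum at 54.7, Dcn at 37.3, Adipoq at 13.2, Col3a1 at 7.04 and Lepr at 3.69, with Pdgfra and Runx2 under 1. In the Sca-1+ libraries it was Adipoq at 55.0, Col1a1 at 25.2, Dcn at 19.3, Lum at 17.6, Lepr at 14.6, Col3a1 at 11.1, Col1a2 at 10.4 and Bglap at 4.01, again with Pdgfra and Runx2 under 1. The Sca-1+ order rests on means over libraries that differ 16.5-fold in Adipoq, and no test was made between genes.

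The 10 genes together took 0.134%, 0.0326%, 0.0620% and 0.122% of all counts in Sca-1+ libraries 7, 13, 15 and 19. They took 2.85%, 0.544%, 0.305%, 2.24% and 2.06% in Sca-1- libraries 8, 10, 14, 16 and 22. No Sca-1- library was as low as a Sca-1+ library, and the Sca-1- libraries fell into 3 above 2% and 2 below 0.6%. The means were 0.0876% ± 0.0483 (SD, n = 4) and 1.60% ± 1.12 (SD, n = 5). The 95% Wilson interval was 2.85% to 2.86% for library 8, the highest, and 0.0318% to 0.0333% for library 13, the lowest, and such intervals cover counting error only. Col1a1 and Col1a2 made up nearly all of the share in the Sca-1- libraries, with 0.292% to 2.72% against 0.0128% to 0.129% for the other 8 genes. Those 8 genes took 0.0264% to 0.0912% in the Sca-1+ libraries, inside the range of the Sca-1- libraries.

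**Figure D3:**
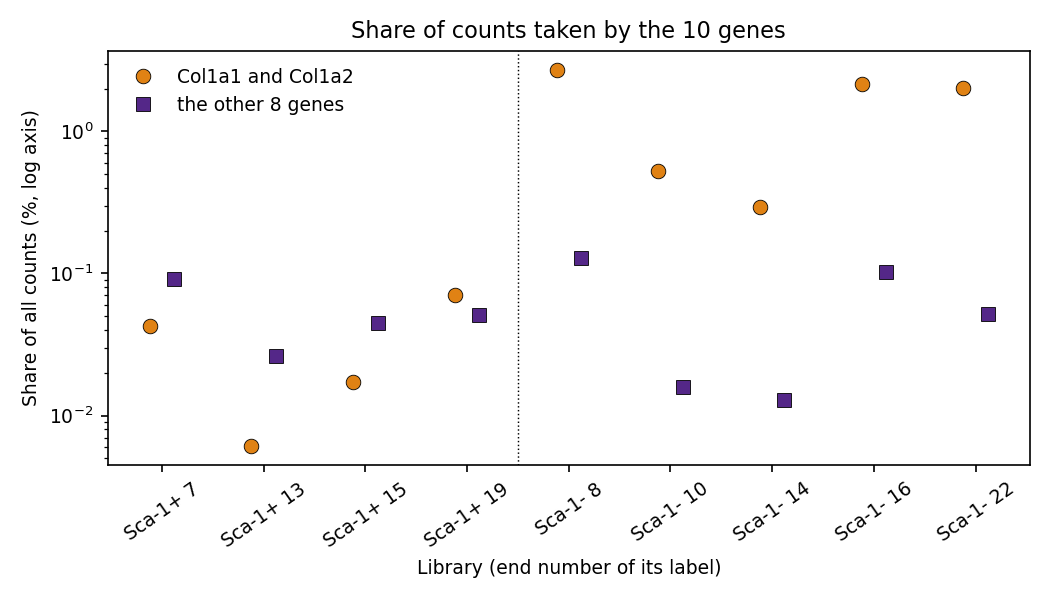
Share of all counts of each library (y axis, percent on a log axis) taken by Col1a1 and Col1a2 together (circles) and by the other 8 genes (squares). The circles lie at 0.292% to 2.72% in the Sca-1- libraries and at 0.00611% to 0.0711% in the Sca-1+ libraries, while the squares overlap between the fractions.

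Within each fraction these genes varied more than most. The median SD of log2 CPM over libraries was 1.09 for the 10 genes and 0.34 for all genes tested in Sca-1+ ECs, and 1.42 and 0.69 in Sca-1- ECs. All 10 were above the median of all genes in both fractions, with SDs from 0.77 (Dcn) to 1.78 (Runx2) in Sca-1+ ECs and from 0.70 (Runx2) to 2.63 (Col3a1) in Sca-1- ECs. Much of this variation was shared. Of the Sca-1+ libraries, 13 was lowest in 9 of the 10 genes (15 was lowest in Dcn), and 7 was highest in 6 and 19 in 4. Library 19 led in Lepr, Col1a1, Col1a2 and Bglap, and library 7 in Adipoq, Pdgfra, Runx2, Col3a1, Dcn and Lum. Of the Sca-1- libraries, 8 was highest in 8 genes and 14 lowest in 8. The exceptions were Runx2, highest in 16, Lepr, lowest in 10, and Adipoq, which was highest in 14 and lowest in 22. Adipoq therefore did not follow the bone matrix genes among the Sca-1- libraries, and library 14 held the most Adipoq and the least Col1a1, Col1a2 and Bglap. Some of these ranks depend on the TMM scaling. Relative to total counts alone, Lepr and Pdgfra were highest in Sca-1- library 22 (874 and 148 counts, against 752 and 126 in 8). Adipoq was then lowest in 10 (127 counts, against 135 in 22), and so was Runx2 (31 counts, against 34 in 14). Of the Sca-1+ libraries, Lepr was then highest in 7 (4150 counts, against 3904 in 19). Lum was then lowest in 15 (695 of 24657204 counts, against 687 of 24112301 in 13).

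**Figure D4:**
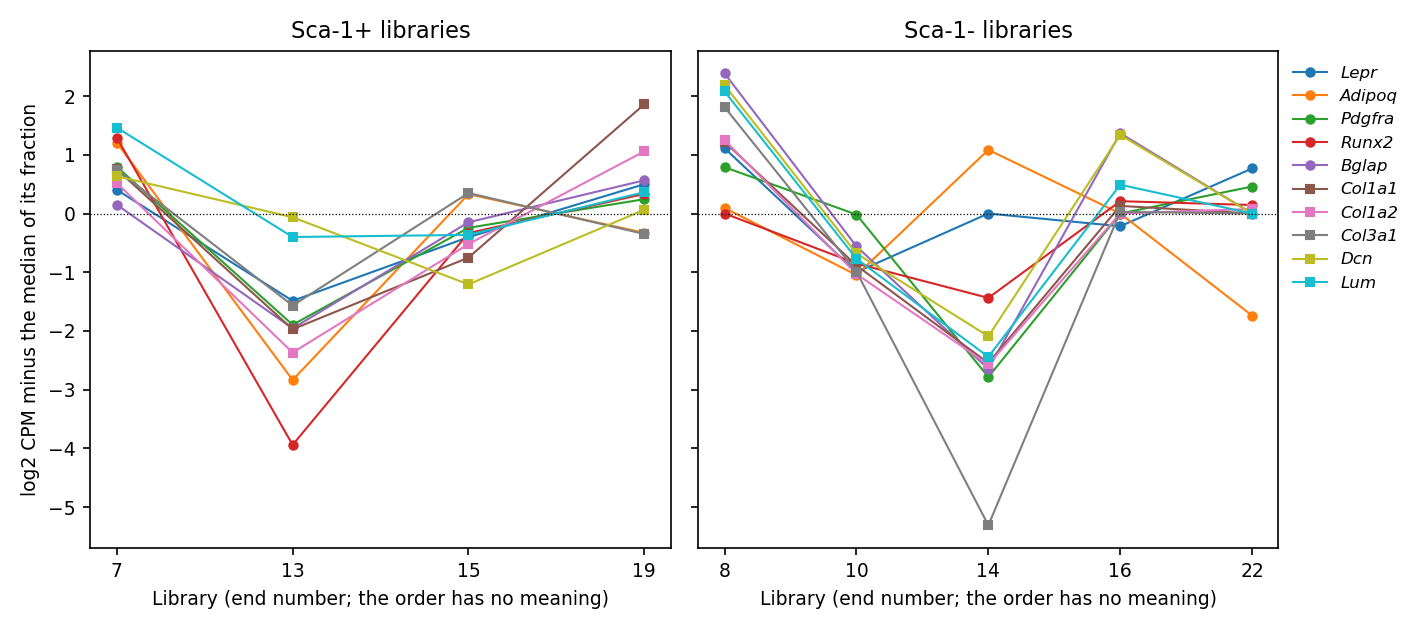
Log2 CPM of each gene minus its median in the fraction (y axis), by library, for the 4 Sca-1+ libraries (left) and the 5 Sca-1- libraries (right), with lines that only join the points of a gene. Most genes dip in Sca-1+ library 13 and Sca-1- library 14 and peak in Sca-1- library 8, and Adipoq is the gene that peaks in library 14.

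Genes related to the 10 were counted in 9 lists that hold none of them. Of 117 such genes tested 36 were called higher and 23 lower in Sca-1+ ECs, or 50.4%, beside the 44.8% of all genes. The lists of reticular cell and adipocyte genes had medians above 2 on the log2 scale and the list of osteoblast and osteocyte genes a median under -2. By these medians they lay on the sides of Lepr and Adipoq and of Bglap, while genes within each list went both ways. The other lists had medians between -0.45 and 1.32.

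Of 15 reticular stromal genes 8 were called higher, 2 lower and 5 were not called, with a median log2 fold change of 2.42. Kitl, which encodes stem cell factor, was counted at 124 to 315 CPM in the Sca-1+ and 2.23 to 9.61 CPM in the Sca-1- libraries (log2 fold change 5.01 ± 0.50 SE, edgeR adjusted p = 5.3e-05). Ebf2, a transcription factor of early B cell factor type, was counted at 1.91 to 16.5 CPM in the Sca-1+ libraries and at 0 in all 5 Sca-1- libraries, at least 59.5-fold lower against a floor of 3 counts per library. Angpt1, which encodes angiopoietin 1, the ligand of the endothelial receptor TEK, went the other way, with 0.715 to 8.32 CPM in the Sca-1+ and 115 to 586 CPM in the Sca-1- libraries (log2 fold change -6.01 ± 0.82 SE, edgeR adjusted p = 2.9e-04). Kitl is also made by ECs and Angpt1 by megakaryocytes, so neither is particular to stromal cells.

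Of 13 adipocyte genes 8 were tested, and 7 were called higher and 1 lower, with a median log2 fold change of 3.77, or 3.09 with Plin1, which was at 0 in the Sca-1- libraries, placed at its bound. Fabp4, a fatty acid carrier that capillary ECs also express, was counted at 2620 to 4924 CPM in the Sca-1+ and 9.43 to 105 CPM in the Sca-1- libraries (log2 fold change 6.40). Pparg, the master regulator of fat cells, had 207 to 321 CPM against 7.61 to 20.02 CPM (log2 fold change 4.08), and Cfd (adipsin) 10.6 to 28.1 CPM against 0 to 2.72 CPM (log2 fold change 5.06). Lep, the leptin gene itself, was at 0 in all 9 libraries, and Retn and Cidec did not exceed 3 counts in any Sca-1+ library. Adig and Adrb3 held at most 5 and 7 counts in a Sca-1+ library, and Plin1, though called higher, held 12 to 38 counts there.

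Of 19 osteoblast and osteocyte genes 17 were tested, 7 of them were called lower in Sca-1+ ECs and 0 higher by edgeR (1 was higher at an unadjusted p under 0.05, and DESeq2 and limma voom called 0 and 1 higher), with a median log2 fold change of -2.78. Dmp1, a matrix protein of osteocytes, was counted at 1.70, 0.0341, 5.53 and 33.9 CPM in Sca-1+ libraries 7, 13, 15 and 19. It was counted at 1323, 441, 59.4, 680.0 and 790 CPM in Sca-1- libraries 8, 10, 14, 16 and 22 (log2 fold change -6.00 ± 1.54 SE, edgeR adjusted p = 0.0096). The extremes fell in the same libraries as those of Col1a1, with 19 the highest Sca-1+ and 14 the lowest Sca-1- library. Phex, an endopeptidase of osteocytes that acts on phosphate balance, had 0 to 11.5 CPM against 32.9 to 165 CPM (log2 fold change -4.62 ± 1.33 SE, edgeR adjusted p = 0.017). The genes called lower included Bglap2, above. Of the genes not called, Mmp13, Spp1, Dlx5 and Alpl had positive log2 fold changes (1.61, 0.60, 0.33 and 2.07) and the others negative ones. Spp1 was counted at 9.71 to 903 CPM in the Sca-1+ and 10.9 to 1155 CPM in the Sca-1- libraries. Ibsp was counted at 29.9 to 626 CPM and 488 to 2247 CPM. In all, 10 genes of this list were not called. Among these, and chosen after its values were seen, Alpl (alkaline phosphatase, which osteoblasts use in mineralization) was the 1 gene of the list with every Sca-1+ library above every Sca-1- library, at 141, 156, 143 and 299 CPM in 7, 13, 15 and 19 against 131, 19.9, 1.70, 49.9 and 17.6 CPM in 8, 10, 14, 16 and 22 (log2 fold change 2.07 ± 0.87 SE, edgeR adjusted p = 0.077).

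**Figure D5:**
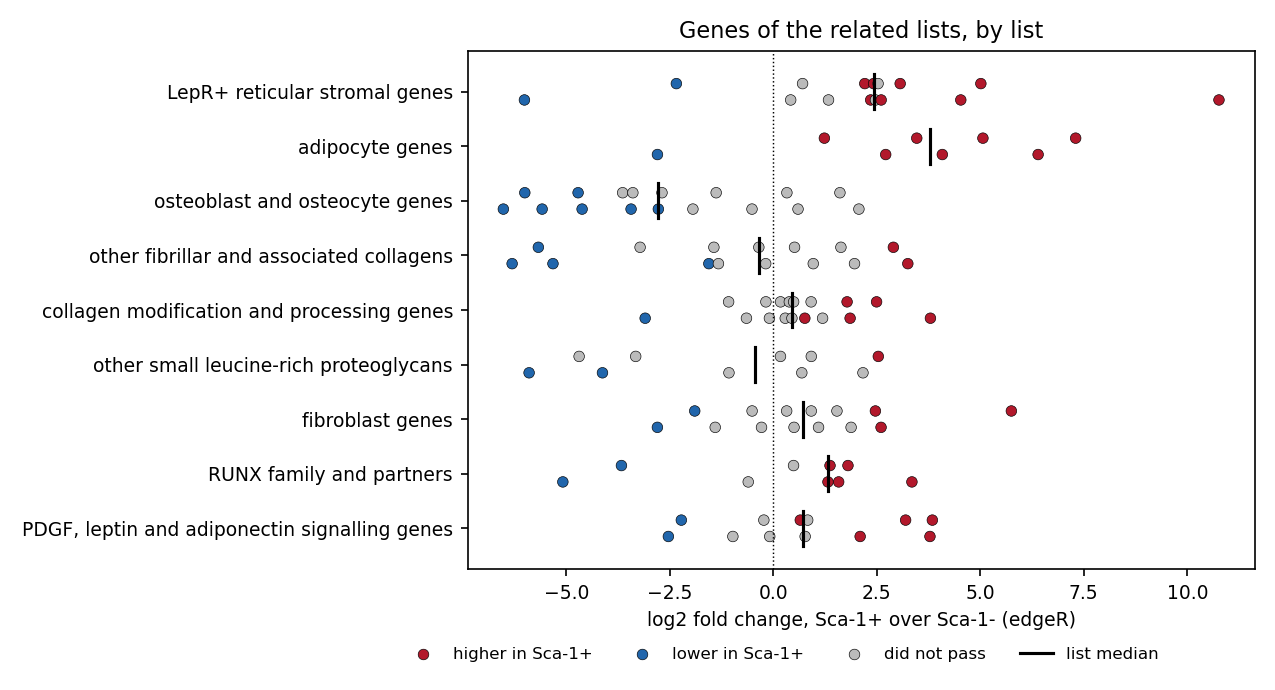
Log2 fold change, Sca-1+ over Sca-1- (x axis), of each tested gene in the 9 related lists (y axis), in red where called higher, blue where called lower and grey where it did not pass in edgeR's test, with a line at the list median. The values of Ebf2 and Plin1, the genes farthest right in the first and second lists, rest on a fraction at 0 counts and depend on the prior count.

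Collagens and their enzymes went both ways. Of 15 other fibrillar and associated collagens 2 were called higher and 4 lower (median log2 fold change -0.35). The alpha chains of fibrillar type XXIV and XI collagen, Col24a1 (0 to 0.813 CPM against 3.99 to 43.4 CPM, log2 fold change -6.31) and Col11a2 (0 to 4.36 CPM against 14.3 to 196 CPM, log2 fold change -5.32), were lower in Sca-1+ ECs, and Col8a1, a short-chain collagen of vessel walls, was higher (30.6 to 121 CPM against 4.78 to 10.8 CPM, log2 fold change 3.25). Of 17 genes for collagen modification and processing 5 were called higher and 1 lower (median 0.45). The lysyl hydroxylases Plod1 and Plod3 and the prolyl hydroxylase subunit P4ha2 were higher, with log2 fold changes of 3.80, 2.50 and 1.86, the opposite direction between the fractions to Col1a1 and Col1a2. The gene called lower was Lox, which cross-links collagen, at 0.681 to 21.2 CPM against 15.2 to 236 CPM.

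Of 13 other small leucine-rich proteoglycans 10 were tested, with 1 called higher and 2 lower (median -0.45). Nyx (nyctalopin) was lower, with a log2 fold change of -5.90, and Ecm2, an extracellular matrix protein, was higher, with 2.54. Of 17 fibroblast genes 14 were tested, and 3 were called higher and 2 lower (median 0.71). Fbln2, a matrix protein of vessel walls, rose by 5.75 on the log2 scale and S100a4 by 2.60, and Gsn, an actin-severing protein that platelets also hold, fell by 2.80.

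Of 9 genes of the RUNX family and its partners 5 were called higher and 2 lower (median 1.32). Runx1, which acts in blood cells, was counted at 2.79 to 6.99 CPM in the Sca-1+ and 61.6 to 100.05 CPM in the Sca-1- libraries (log2 fold change -3.67), and Runx3 at 0.104 to 0.375 CPM and 3.24 to 12.7 CPM (log2 fold change -5.08). Both were called lower, while Runx2 was not called. Wwtr1, which encodes the co-activator TAZ, rose by 3.35 on the log2 scale. Of 12 genes of PDGF, leptin and adiponectin signalling 5 were called higher and 2 lower (median 0.71). The adiponectin-binding cadherin Cdh13, the PDGF ligand Pdgfd and the signalling inhibitor Socs3 were higher in Sca-1+ ECs by 3.84, 3.78 and 3.20 on the log2 scale. Exons of Ebf2, Angpt1, Adrb3, Spp1, Plod3, Lox, S100a4 and Runx1 overlap another annotated gene, which leaves these genes uncertain.

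Markers of other cells moved with these genes in part. Of 10 chondrocyte markers 8 were tested and 1 was called lower, and their sum was 2569, 48.6, 106, 431 and 28.1 CPM in Sca-1- libraries 8, 10, 14, 16 and 22 and 251, 6.44, 9.91 and 15.02 CPM in Sca-1+ libraries 7, 13, 15 and 19. Libraries 8 and 7, the highest for most of the 10 genes in their fractions, were thus the highest in this sum too. Col2a1 alone gave 1967 CPM of it in library 8 and 201 CPM in library 7. The other Sca-1- libraries did not keep the order of the 10 genes, since the sum was lowest in 22 and library 14 lay above 10 and 22. Of 12 smooth muscle and pericyte markers 10 were called higher in Sca-1+ ECs, with a sum of 807 to 1767 CPM against 20.5 to 98.0 CPM. Of 7 osteoclast markers 5 were tested and 2 called lower, with sums of 2.83 to 86.7 CPM and 12.9 to 47.9 CPM, and the markers Calcr and Ocstamp did not exceed 3 counts in any library. Library 13 had the lowest sum of osteoclast, chondrocyte and smooth muscle markers among the Sca-1+ libraries.

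All 11 megakaryocyte markers were called lower in Sca-1+ ECs, with sums of 93.4 to 169 CPM against 21452 to 79367 CPM. Of 10 general leukocyte markers 8 were called lower (246 to 406 CPM against 1985 to 4067 CPM), and of 9 erythroid markers 7 (47.3 to 209 CPM against 560 to 2148 CPM). Of 8 macrophage markers 7 were tested, 1 was called higher and 6 were not called, with a median log2 fold change of -0.23. Their sums were 82.0 to 188 CPM against 8.84 to 44.2 CPM, and so do not stand for most genes of the list. Of 8 Schwann cell markers 5 were tested and 2 were called lower (7.29 to 11.2 CPM against 121 to 662 CPM). Sox10 and Gfra3 were at no more than 3 counts in any Sca-1+ library. In TMM-scaled CPM the megakaryocyte sum was highest in Sca-1- library 10 and lowest in library 16, which was not the order of the bone matrix genes. It was 69194 CPM in library 8 and 79367 CPM in library 10, with TMM factors of 0.671 and 0.581. Which of these libraries was the higher therefore depends on the scaling. The part of any of these cells in the levels of the 10 genes was not tested.

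Over the 9 libraries, the genes most like the mean log2 CPM of the 10 genes, among 9859 other genes with an average log2 CPM of at least 3, were Slc36a2 (Pearson's r = 0.97), Lox (0.96), Car3 (0.96), Metrnl (0.96), Col11a1 (0.95) and Cpe (0.95). Slc36a2 encodes an amino acid transporter, Car3 a carbonic anhydrase and Cpe a carboxypeptidase. Lox, at 236 CPM in library 8 and 0.681 CPM in library 13, and Car3, at 242 CPM and 3.92 CPM, had their highest and lowest values in the same libraries as the mean of the 10 genes. Over the 5 Sca-1- libraries alone the most alike were Papss2, which makes the sulfate donor for proteoglycans (r = 0.999), Rerg (0.998), Wisp1 (0.997), Fam114a1 (0.997), Cryab (0.996) and Gpx8 (0.996). Of these Papss2 and Fam114a1 were called higher in Sca-1+ ECs, with log2 fold changes of 2.08 and 1.67, and Rerg and Wisp1 lower, with -2.99 and -2.27. These correlations describe 9 or 5 points that share library and depth, and the highest of 9859 values is high by selection.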

How the data were processed

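RNA of sorted BM ECs was amplified from 2 ng with SMART-Seq v4, which has no molecular identifiers, so depth gives counting precision only. The authors deposited raw read counts per gene for all 9 libraries, made with STAR and featureCounts on mm10 per the submitters' processing notes (versions and strand setting are not given in the sources used here). Groups are those of the labels. All 9 columns were used. The analysis used edgeR 4.0.16 under R 4.3.3 (filterByExpr at a minimum count of 10 and total of 15, TMM, quasi-likelihood F-test, two-sided, threshold 0.05, no covariate). Standard errors come from the F statistic, and log2 CPM has a prior count of 2. The comparison was first tested on simulated data. No 2 libraries of a fraction were copies (chi-square of at least 40.0 per degree of freedom). GENCODE M21 (GRCm38) gave coordinates and exon lengths and listed 45229 of the 46078 identifiers.

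The 10 genes, the 18 lists and the tests were chosen with earlier results of these data known. Of 230 list symbols 228 matched 1 row (Pdpn matched 2 rows and Epb42 none). Named from each of the 9 related lists were up to 3 called genes with no overlap, at least 1 in average log2 CPM and the largest difference, and Lox also as one of the genes most like the 10. The genes most like them were the 6 with the highest r. Chondrocyte, muscle, osteoclast and other cell marker lists are given as sums. Alternatives were other scalings, no filter, robust weighting, DESeq2 1.42.0, limma 3.58.1 (voom), replicate blocks, leaving out each library and, chosen after seeing the data, the title mark as a term.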

Additional observations from a re-analysis of the deposited data

Results flagged for a closer look

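Dixon's ratio of gap to range singled out 1 library in 4 of the 74 sets examined (1 gene, or the share of counts, in 1 fraction), a number that chance alone, at about 1 in 20, would give. The log2 CPM of Pdgfra was -0.48 in Sca-1- library 14, from 15 counts, and 2.14 to 2.94 in the other Sca-1- libraries (gap 0.767 of the range). The log2 CPM of Cfd was 1.49 in Sca-1- library 16 against -3.63 to -2.62 elsewhere in the fraction. That of Pparg was 2.94 in Sca-1- library 22 against 3.96 to 4.33 elsewhere. That of Runx1 was 6.65 in Sca-1- library 10 against 5.95 to 6.04 elsewhere.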

How the results depend on the processing

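Over all alternatives Col1a1, Col1a2 and Bglap stayed called lower. The number of the 10 genes called higher in Sca-1+ ECs was 2. It was 1 with limma voom and with a replicate block on the title number that libraries 15 and 16 share. The number was 1 to 2 when 1 library was left out, Adipoq being lost each time. With a replicate block on consecutive end numbers (7 and 8, 13 and 14, 15 and 16) it was 1, and with the same 6 libraries without the block it was 0, Lepr then having an adjusted p of 0.065 in edgeR's test. That block gave 2265 genes called higher and 2075 called lower over the whole table, against 3721 and 3416, and the 6 libraries alone gave 2768 and 2592. With the title mark as a term over the 8 libraries that carry one, chosen after seeing the data, 0 of the 10 genes were called higher and 5 lower, Runx2 and Lum joining, and Fam114a1 lost its call. The deviations of the libraries with consecutive end numbers correlated at 0.147, 0.148 and 0.0420. The other pairings of a Sca-1+ with a Sca-1- library gave -0.19 to 0.065, so 7 with 8 and 13 with 14 stood highest. The labels do not say that these numbers mark pairs, and the main fit used no pairing. Whether the libraries are paired was not settled. Scaling by library size only raised the median of all genes by 0.36 on the log2 scale and moved the share of calls that were higher from 52.1% to 63.1%. Pdgfra, never called, turned positive with library size only (0.21), with the block on consecutive numbers (0.035) and without Sca-1+ library 13 (0.11, in a range of -0.60 to 0.11 over the fits that left out 1 library), and Gpx8, never called, with library size only (0.022). In each case the cause was not tested. Runx2, Bglap and Pdgfra had 2, 20 and 31 counts in Sca-1+ library 13, which limits their precision there.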
